A study of Mus musculus with 4 samples.

Results

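The genes described here encode subunits of respiratory complex I, the NADH dehydrogenase of the mitochondrial inner membrane, measured in gastrocnemius, the large calf muscle of the mouse. Members were all genes of the array's probe annotation whose symbol starts with Ndufa, Ndufb, Ndufc, Ndufs or Ndufv and a digit, plus Ndufab1, and genes of the assembly factors (Ndufaf) were not members. The annotation holds 42 such symbols. Of these, 34 had a probe set with a single symbol, and all 34 passed the filter on dim probe sets, among 8402 genes tested in all. The other 8 symbols stand only on probe sets shared between a gene and its near-identical copies. Total RNA came from mice with a transgene for the nuclear receptor PPARα that is overexpressed in muscle (MCK-PPARa, 2 samples) and from non-transgenic littermates (NTG, 2 samples). Each sample was hybridised to 1 array. The series describes 2 mice of each genotype, and the sources used here state no strain, sex or age. The transgene is described as muscle-specific. Whether the 2 arrays of a genotype stand for its 2 mice is not stated, and the spread behind each p-value is that between these samples, which may be technical.

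Complex I takes electrons from NADH, passes them through a flavin and a chain of iron-sulphur clusters in its matrix arm to ubiquinone, and pumps protons through its membrane arm. A set of core subunits, which have counterparts in bacteria, does the chemistry. The core subunits of the matrix arm are encoded in the nucleus and those of the membrane arm by mitochondrial DNA, and a large set of accessory subunits, all nuclear, surrounds them. PPARα is a ligand-activated transcription factor whose best known targets serve fatty acid uptake and oxidation, which delivers electrons to the chain as NADH and, through the electron transfer flavoprotein, directly to ubiquinone.

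Values are the authors' scaled array signals, and differences are MCK-PPARa minus NTG on the scale log2(signal + 64.2), with the standard error (SE) from limma and n = 2 per group. The arrays carried nearly the same trimmed mean signal, 1500.6 to 1500.7, with median signals of 581.5 to 700.3. As a check of the labels, the Ppara probe set read 633 and 2674 in NTG against 7969 and 15226 in MCK-PPARa, replicate 1 first here and in all pairs of signals that follow. Both transgenic samples lay above both controls (limma adjusted p = 0.21). The skeletal muscle marker Ckm, the muscle creatine kinase, read 168024 to 233215 over the 4 arrays. In whole muscle RNA, fewer cells of a type and less RNA per cell cannot be told apart. With 2 samples per group the smallest two-sided p of an exact permutation test is 0.333. Tests therefore used limma, which borrows the spread of all genes, with Benjamini-Hochberg adjustment over the 8402 genes.

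No complex I gene passed the test between the genotypes. The count was 0 of 34 at a limma adjusted p under 0.05, where 0.0595% of all genes tested passed, and also 0 of 34 at an unadjusted p under 0.05, where 5.83% of all genes did. The lowest adjusted p of a member was 0.90, for Ndufv3. The median difference of the 34 genes was 0.22, a 1.16-fold higher signal in MCK-PPARa, against a median of 0.05 over all genes tested. Differences ran from -0.88 (Ndufb1) to 0.75 (Ndufv3), or 0.545-fold to 1.69-fold. They were above 0 for 27 of 34 genes, against 55.5% of all genes tested. With the arrays centred on their medians, which lowers the median of all genes by 0.10, 22 of 34 were above 0 (64.7% in place of 79.4%), against 45.4% of all genes.

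The sign of that median depended on the control arrays. It was 0.017 for the replicate 1 arrays, with 18 of 34 genes above 0 (54.1% of all genes tested), but 0.45 for the replicate 2 arrays, with 28 of 34 above 0 (54.8% of all genes). Leaving out NTG replicate 2 turned it to -0.14, with 9 of 34 genes above 0, and leaving out NTG replicate 1 raised it to 0.51, with 31 of 34 above 0. When a transgenic array was left out, the median was 0.09 without its replicate 1 and 0.31 without its replicate 2. NTG replicate 2 gave the lowest of the 4 signals for 24 of 34 complex I genes, against 25.2% of all genes tested. Signals on the replicate 2 array were below those on the replicate 1 array for 29 of 34 genes in NTG (46.2% of all genes) and for 22 of 34 in MCK-PPARa (44.9% of all genes). Both held for 21 of 34 (29.8% of all genes).

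**Figure D1:**
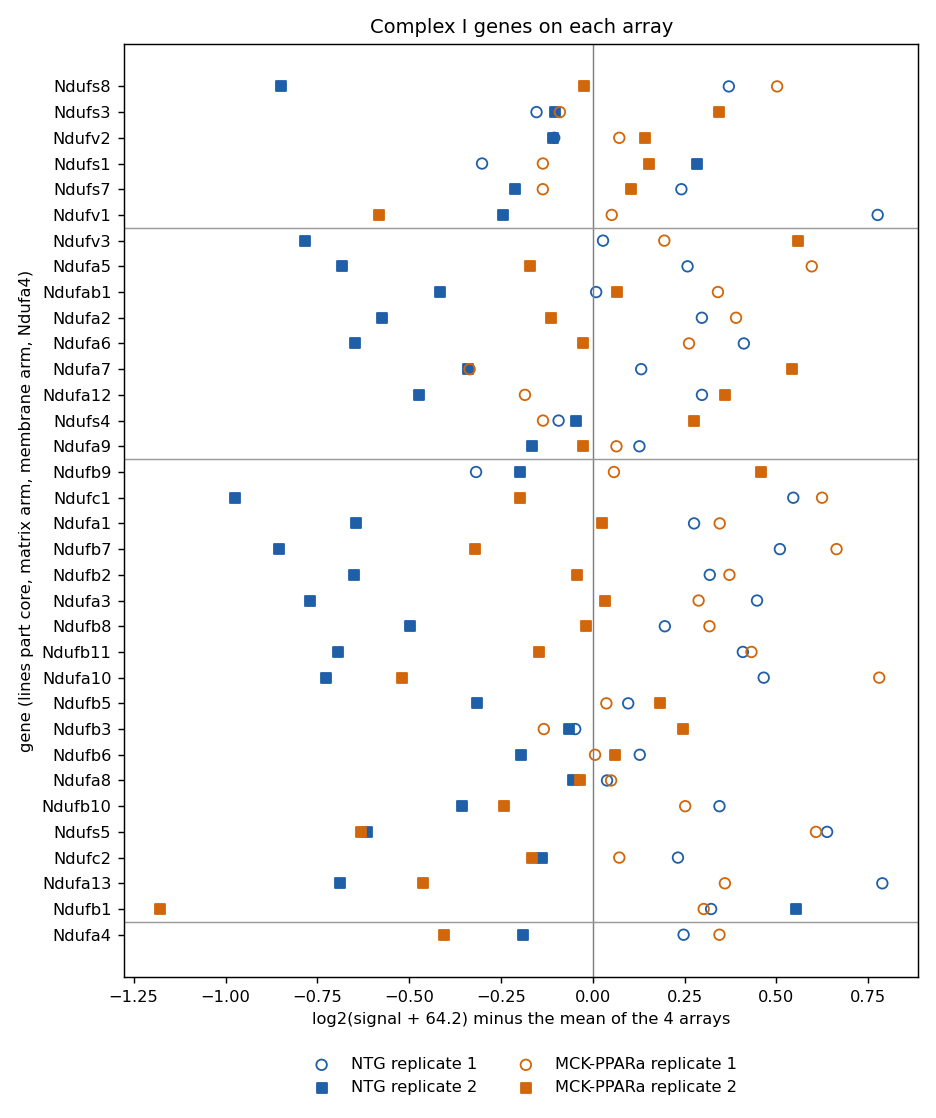
Each row is 1 complex I gene and each point 1 array, as log2(signal + 64.2) minus the mean of the 4 arrays; circles are replicate 1, squares replicate 2, blue NTG and orange MCK-PPARa. The filled blue squares, NTG replicate 2, are the leftmost point for 24 of the 34 genes.

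Among the core subunits of the matrix arm, 6 genes were tested. Ndufv1, which binds NADH and the flavin, had signals of 35837 and 17633 in NTG against 21669 and 13933 in MCK-PPARa. The groups overlapped, and the transgenic sample was the lower one within each replicate number, with differences of -0.72 and -0.34. Its overall difference was -0.53 ± 0.42 (SE, limma adjusted p = 0.96). Ndufv2, its partner with an iron-sulphur cluster, read 55385 and 55243 in NTG against 62627 and 65688 in MCK-PPARa. Both transgenic samples lay above both controls and replicates were close, at a difference of 0.21 ± 0.30 (SE, limma adjusted p = 0.98). Ndufs1, the largest subunit and the holder of several clusters, gave 12121 and 18207 in NTG against 13603 and 16645 in MCK-PPARa. Here both replicate 2 arrays stood above both replicate 1 arrays, and the genotype difference was 0.02 ± 0.33 (SE).

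Among the core subunits of the part of the matrix arm that reduces ubiquinone, Ndufs3 read 29341 and 30386 in NTG against 30666 and 41470 in MCK-PPARa. Its groups did not overlap, but the higher control and the lower transgenic sample were nearly level, and the difference was 0.26 ± 0.31 (SE, limma adjusted p = 0.97). Ndufs7, next to the quinone site, had 37403 and 27320 in NTG against 28780 and 34035 in MCK-PPARa. The transgenic sample was the lower one in replicate 1 and the higher one in replicate 2, by -0.38 and 0.32. Ndufs8, which binds a pair of clusters, showed 60648 and 25992 in NTG against 66440 and 46153 in MCK-PPARa. NTG replicate 2 stood below the other 3 arrays, and the difference was 0.48 ± 0.45 (SE, limma adjusted p = 0.97). Over the 6 core genes the median difference was 0.12, with 4 above 0 and 2 below.

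All 8 accessory subunits of the matrix arm that were tested had a difference above 0 on the brightest probe set, with a median of 0.22. Their median was -0.05 for the replicate 1 arrays but 0.57 for the replicate 2 arrays, and NTG replicate 2 was the lowest array for 7 of the 8. Some other probe sets were below 0, so that 3 of 5 were for Ndufa7, 2 of 4 for Ndufa12 and 1 of 3 for Ndufs4. Ndufv3, a small subunit beside the NADH site, had the largest positive difference of any member. Its signals were 42221 and 24046 in NTG against 47410 and 61067 in MCK-PPARa. The transgenic samples were the 2 highest, with differences of 0.17 for the replicate 1 arrays but 1.34 for the replicate 2 arrays, and the overall difference was 0.75 ± 0.37 (SE, limma adjusted p = 0.90, 95% interval -0.10 to 1.61). Ndufa5 read 6584 and 3396 in NTG against 8341 and 4875 in MCK-PPARa, so that replicates differed more than genotypes (0.43 ± 0.42, SE). The other 6 members of this group, Ndufa2, Ndufa6, Ndufa7, Ndufa9, Ndufa12 and Ndufs4, had differences from 0.04 (Ndufa9) to 0.28 (Ndufa2). Ndufa7 and Ndufa12 differed in sign by replicate number, at -0.47 and -0.48 for the replicate 1 arrays but 0.88 and 0.83 for the replicate 2 arrays.

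Ndufab1, the mitochondrial acyl carrier protein, is built into complex I in both arms and also serves mitochondrial fatty acid synthesis. It read 21809 and 16227 in NTG against 27460 and 22676 in MCK-PPARa. Both transgenic samples were above both controls, at 0.41 ± 0.31 (SE, limma adjusted p = 0.96), with 0.33 and 0.48 within the replicate numbers. A second probe set of this gene went the other way (3076 and 2683 in NTG against 2705 and 1391 in MCK-PPARa, -0.55 ± 0.37, SE). With the probe sets averaged the difference was -0.0715.

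Among the accessory subunits of the membrane arm 18 of 20 genes were tested, 14 with a difference above 0 and 4 below, at a median of 0.24. Ndufb9 had the largest of these, with 63596 and 69108 in NTG against 82520 and 108899 in MCK-PPARa. Its groups did not overlap and the difference was 0.52 ± 0.32 (SE, limma adjusted p = 0.96), with 0.38 and 0.66 within the replicate numbers. Ndufb1 had the most negative difference, from signals of 1416 and 1673 in NTG against 1395 and 459 in MCK-PPARa. The low value of MCK-PPARa replicate 2 made the difference, -0.88 ± 0.49 (SE, limma adjusted p = 0.95): between the replicate 1 arrays it was -0.02. Without MCK-PPARa replicate 1 Ndufb1 was called, at -1.62 (limma adjusted p = 0.039), and without MCK-PPARa replicate 2 it was not, so this call rested on 1 transgenic array.

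Ndufa1, which sits near the hinge between the arms, read 51809 and 27317 in NTG against 54380 and 43501 in MCK-PPARa. Ndufb8 had 64409 and 39803 in NTG against 70076 and 55548 in MCK-PPARa. Ndufb2 gave 41488 and 21184 in NTG against 43059 and 32295 in MCK-PPARa. These 3 genes shared 1 order of the arrays, with MCK-PPARa replicate 1 highest, NTG replicate 1 next, then MCK-PPARa replicate 2 and NTG replicate 2 lowest, at differences of 0.37 ± 0.38, 0.30 ± 0.35 and 0.33 ± 0.39 (SE). Ndufa13, also known as a cell death regulator, read 62563 and 22457 in NTG against 46462 and 26263 in MCK-PPARa (-0.10 ± 0.52, SE), with NTG replicate 1 highest and NTG replicate 2 lowest. Ndufc2 read 18116 and 14006 in NTG against 16211 and 13727 in MCK-PPARa (-0.09 ± 0.31, SE), with overlapping groups.

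A pair of membrane arm genes, chosen after their values were seen, shows a large and a small replicate gap beside little difference between the genotypes. Ndufs5 read 18432 and 7698 in NTG against 18049 and 7606 in MCK-PPARa. Its replicate 2 minus replicate 1 difference was -1.25 in NTG and -1.24 in MCK-PPARa, while the genotypes differed by -0.024. Ndufa8, by contrast, was nearly level on all 4 arrays, at 32225 and 30203 in NTG against 32475 and 30623 in MCK-PPARa. The remaining 9 genes of this arm, Ndufa3, Ndufa10, Ndufb3, Ndufb5, Ndufb6, Ndufb7, Ndufb10, Ndufb11 and Ndufc1, had differences from 0.01 (Ndufb10) to 0.43 (Ndufc1). Ndufa4 carries a complex I name but is assigned to complex IV today. It read 29425 and 21730 in NTG against 31490 and 18714 in MCK-PPARa, with both replicate 2 arrays below both replicate 1 arrays and a genotype difference of -0.06 ± 0.36 (SE).

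**Figure D2:**
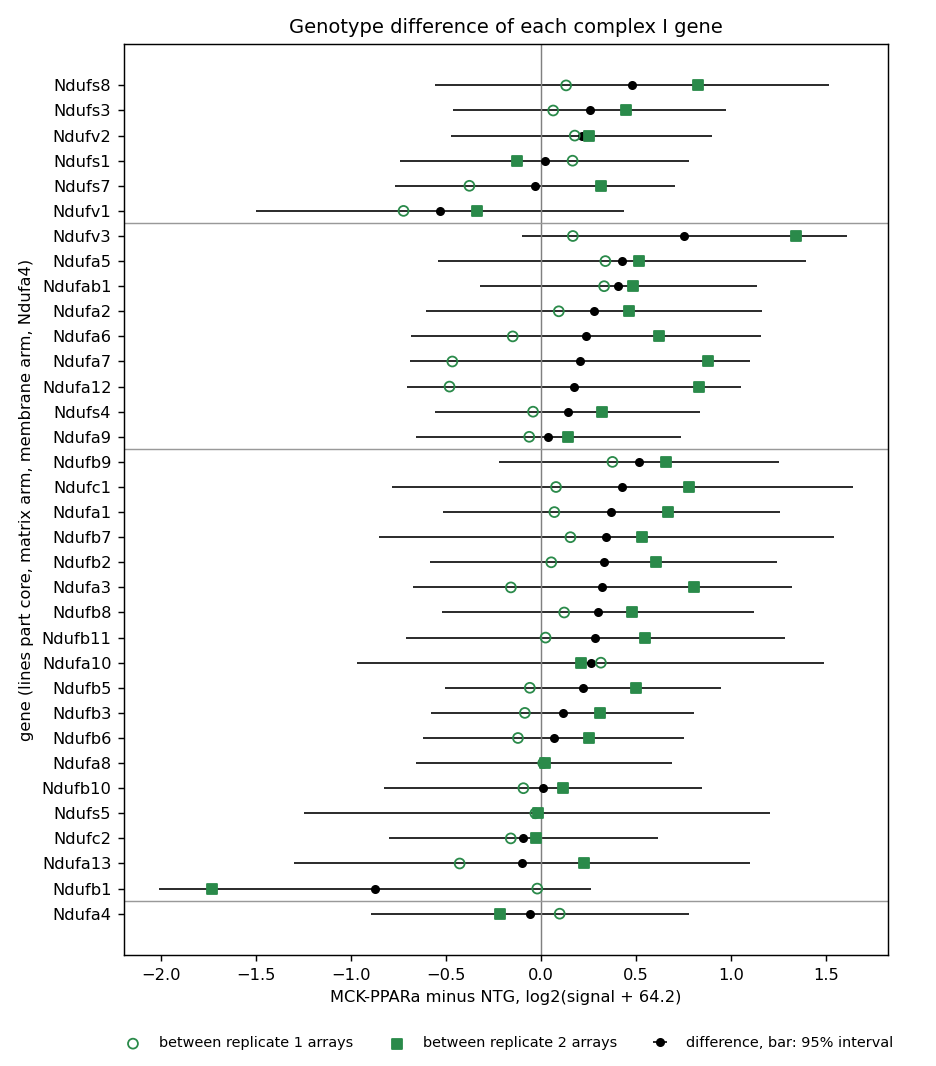
MCK-PPARa minus NTG for each complex I gene in units of log2(signal + 64.2): black points are the difference with its 95% interval from limma, open circles the difference between the replicate 1 arrays and filled squares that between the replicate 2 arrays. Every interval includes 0, and the squares lie to the right of 0 for 28 of 34 genes against 18 of 34 circles.

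The groups did not overlap for 6 of the 34 genes. MCK-PPARa was the higher group for 5 of them, Ndufv3, Ndufb9, Ndufab1, Ndufs3 and Ndufv2, against 20.4% of all genes tested, and the lower group for Ndufb1, against 13.8% of all genes. Within both replicate numbers MCK-PPARa was higher for 16 of 34 genes (35.2% of all genes tested) and lower for 4 (26.3%), which were Ndufv1, Ndufb1, Ndufc2 and Ndufs5. Replicates of a group lay farther apart than the genotypes for most members. The median absolute gap between replicates was 0.70 in NTG and 0.41 in MCK-PPARa, and the median absolute genotype difference was 0.25. The gap was larger than the genotype difference for 28 of 34 genes in NTG (59.5% of all genes tested), for 26 in MCK-PPARa (63.4%) and in both groups for 22 (45.4%).

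The 95% intervals give the size of difference that 4 arrays left possible. They reached 0.68 to 1.23 to either side on the log2 scale, with a median of 0.87. For 13 of the 34 genes the whole interval lay within a 2-fold change in either direction (29.9% of all genes tested). It took in a 2-fold higher signal for 19 genes (43.8% of all genes) and a 2-fold lower one for 4 (34.3%). A missed threshold here does not show equal expression.

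The gap between the replicate arrays differed by gene. In NTG it was -1.52 for Ndufc1, -1.48 for Ndufa13, -1.36 for Ndufb7 and -1.25 for Ndufs5 on the log2 scale, all genes of membrane arm subunits. Of the same arm, Ndufb1 had 0.23 and Ndufb9 0.12. Among the 6 core genes it was 0.58 for Ndufs1, 0.05 for Ndufs3 and -0.004 for Ndufv2. The other core genes had -0.45 (Ndufs7), -1.02 (Ndufv1) and -1.22 (Ndufs8). Medians were -0.23 over the 6 core genes, -0.79 over the 8 accessory genes of the matrix arm and -0.81 over the 18 of the membrane arm, against 0.06 over all genes tested. In MCK-PPARa the same medians were 0.16, 0.14 and -0.37, against 0.07 over all genes. These classes were not tested against each other. The arrays also differed by replicate number in the control probe set for the 5′ part of 18S ribosomal RNA, which read 2202 and 2313 on the replicate 1 arrays and 28.9 and 44.7 on the replicate 2 arrays, NTG first. The signal ratio of the 3′ to the 5′ probe set of Gapdh was 0.965 and 0.874 in NTG against 0.880 and 0.718 in MCK-PPARa. That of Tfrc was 4.44 and 1.76 in NTG against 2.79 and 1.55 in MCK-PPARa, higher on both replicate 1 arrays. The part of these in the complex I values was not tested.

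**Figure D3:**
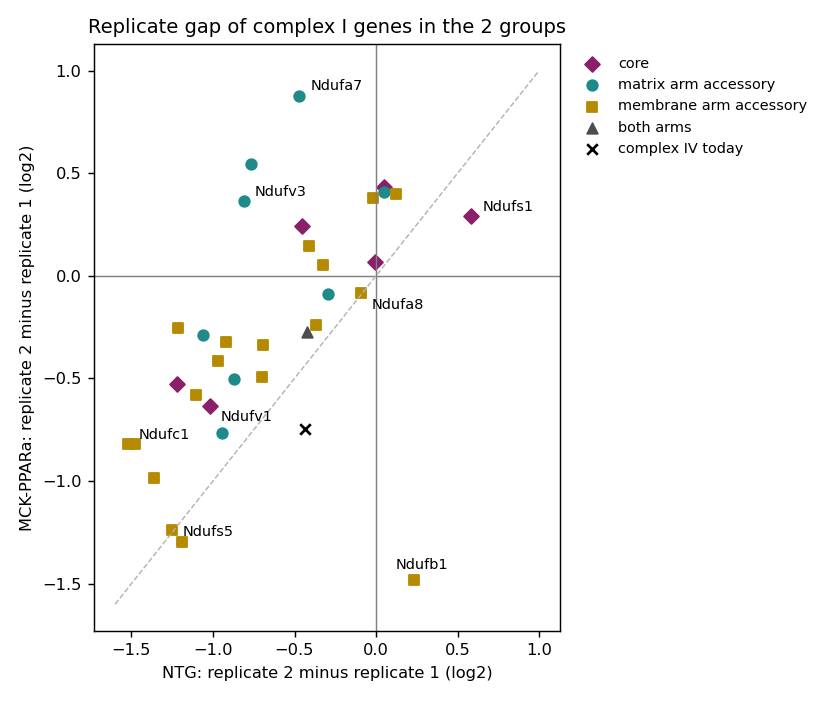
Each point is 1 complex I gene, with its replicate 2 minus replicate 1 difference (log2) in NTG on the x axis and in MCK-PPARa on the y axis; the dashed line marks equal gaps. Points lie left of 0 for 29 genes and below 0 for 22, Ndufs5 lies on the line, and Ndufb1 stands alone at lower right.

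Several genes were measured by more than 1 probe set. Single-symbol probe sets of members numbered 68, of which 66 passed the filter, and 46 of the 66 had a difference above 0. In 11 of the 19 genes with several such probe sets the differences all had 1 sign. Ndufv1 was below 0 on all 3 of its probe sets (-0.53, -0.23 and -0.19), and Ndufv2 was above 0 on all 3 (0.21, 0.34 and 0.52). Ndufa5 agreed closely, at 0.43 and 0.47. Ndufa7 spread most, from -1.09 to 0.22 over 5 probe sets, and the most negative one read 37131 on NTG replicate 1 and 7695 to 8140 on the other 3 arrays. Ndufb9 gave 0.52 on its brightest probe set and -0.01 on another. NTG replicate 2 was the lowest array on 43 of the 66 probe sets. In a limma fit over every probe set none of the 66 passed, at a lowest unadjusted p of 0.11.

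**Figure D4:**
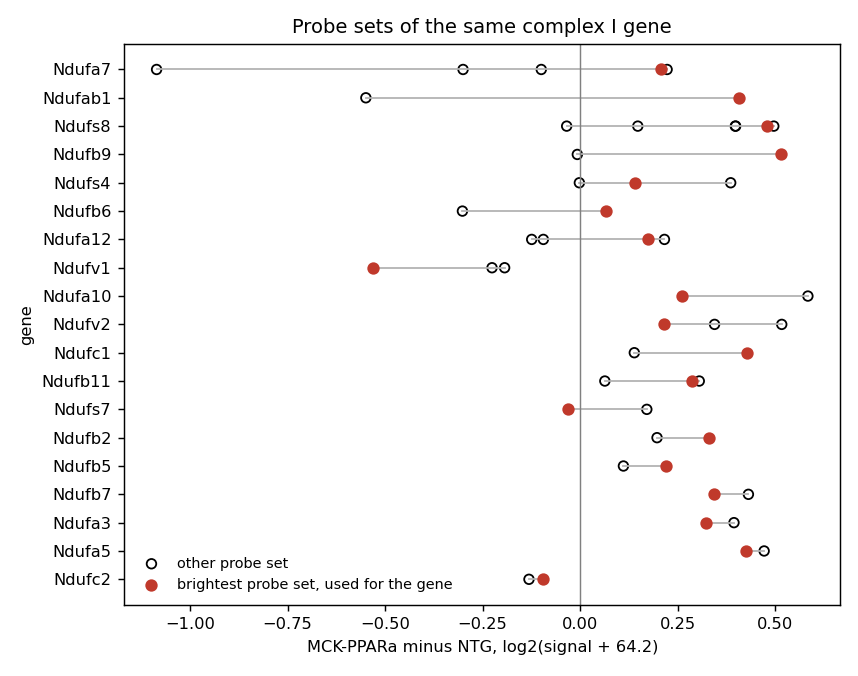
Differences between the genotypes, in units of log2(signal + 64.2), for the 19 complex I genes with several probe sets past the filter; red points are the brightest probe set, which stands for the gene, and open circles the others. Probe sets of Ndufa7 and Ndufab1 lie on both sides of 0, and those of Ndufa5, Ndufa3 and Ndufc2 lie close together.

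Further subunit genes were seen only through probe sets that they share with a copy, so their values are uncertain. The probe set of Ndufa11 and Ndufa11b read 32651 and 14999 in NTG against 38235 and 30125 in MCK-PPARa, a difference of 0.62. That of Ndufs6 and Ndufs6b read 26263 and 8204 in NTG against 20391 and 9995 in MCK-PPARa, a difference of -0.04. The 2 probe sets of Ndufb4 with its copies Ndufb4b and Ndufb4c gave 0.38 and 0.27. NTG replicate 2 was again the lowest array on each of these 4 probe sets.

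Other genes of the pathway were taken from lists. Complex I assembly factors, which build the complex and are not part of it, lay mostly on the other side of 0 in the fit to all 4 arrays. Of 11 tested, 10 had a difference below 0 (44.5% of all genes tested), at a median of -0.18, and 3 had MCK-PPARa below NTG with no overlap (13.8% of all genes). None passed the test without the replicate number as a block, with or without adjustment. With the block none passed after adjustment. Ndufaf4 and Timmdc1, both lower, then had an unadjusted limma p of 0.0075 and 0.048. In that fit 7.03% of all genes tested were lower at an unadjusted limma p under 0.05. The count of assembly factors below 0 was 9 with quantile normalization and 8 or 9 when 1 array was left out. Without NTG replicate 2 the median was -0.14 for the subunits and -0.28 for the assembly factors, so both lay below 0. Ndufaf4 read 3401 and 2551 in NTG against 2465 and 980 in MCK-PPARa (-0.89 ± 0.44, SE, limma adjusted p = 0.90). Timmdc1, a membrane arm assembly factor, read 1804 and 1281 in NTG against 1458 and 635 in MCK-PPARa (-0.62 ± 0.43, SE). Ndufaf5 read 2182 and 2193 in NTG against 1442 and 2025 in MCK-PPARa (-0.34 ± 0.31, SE). The difference between subunits and assembly factors was not tested.

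Some enzymes that feed electrons to ubiquinone without complex I had larger absolute differences than any complex I gene, namely 3 of the 7 listed, and the median of the 7 was 0.18. Etfdh, the oxidoreductase that takes electrons from fatty acid oxidation, read 3011 and 4352 in NTG against 19517 and 17387 in MCK-PPARa (2.33 ± 0.31, SE, limma adjusted p = 0.082). Gpd2, the mitochondrial glycerol phosphate dehydrogenase, read 5420 and 12634 in NTG against 2125 and 4669 in MCK-PPARa (-1.37 ± 0.50, SE, limma adjusted p = 0.70). Etfb, a subunit of the electron transfer flavoprotein, read 39865 and 21165 in NTG against 72898 and 49767 in MCK-PPARa (1.05 ± 0.40, SE, limma adjusted p = 0.74). Groups did not overlap for these 3 genes, where 20.4% of all genes tested were higher and 13.8% lower without overlap. Without the replicate number as a block none of the 7 passed limma after adjustment, a call that the block changed for these 3 genes. Without the block, 4 of the 7 had an unadjusted limma p under 0.05 (5.83% of all genes tested). Of 11 tested regulators of respiratory gene expression, among them Ppargc1a, Nrf1, Esrra and Tfam, none passed either, with or without adjustment. Their median difference was 0.06. Ppargc1a, the coactivator of mitochondrial biogenesis, read 1735 and 1777 in NTG against 1523 and 1901 in MCK-PPARa.

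The other respiratory complexes were set beside complex I by the same counts, without a test. The median genotype difference was -0.04 over 4 genes of complex II, 0.18 over 10 of complex III, 0.31 over 15 of complex IV and 0.17 over 17 of ATP synthase. NTG replicate 2 was the lowest array for 1 of the 4, 4 of the 10, 10 of the 15 (66.7%) and 14 of the 17 (82.4%), against 70.6% of complex I genes. It was the lowest for 41.9% of 74 mitochondrial and 66.7% of 39 cytosolic ribosomal protein genes. Without NTG replicate 2 the medians of complex IV and ATP synthase were -0.06 and -0.11. Low signals on this array were thus not limited to complex I.

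**Figure D5:**
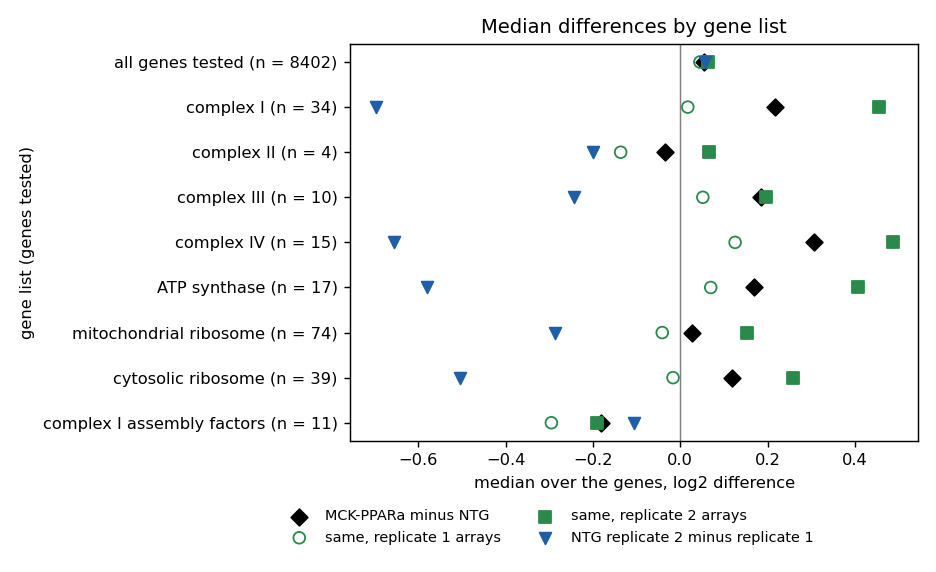
Median log2 differences by gene list, with the number of genes tested: black diamonds are MCK-PPARa minus NTG, open and filled green symbols the same between the replicate 1 and replicate 2 arrays, and blue triangles NTG replicate 2 minus replicate 1. For complex I the triangle is at -0.70 and the diamond at 0.22, while all 4 symbols of all genes tested lie at 0.05 or 0.06.

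Summed signals of marker genes for fibre types and other cells also differed between the arrays. The summed signal of 7 slow-fibre genes was 123549 and 81780 in NTG against 63041 and 54497 in MCK-PPARa, with all 7 below 0 (limma adjusted p of Myh7, the slow myosin heavy chain, 0.16 without the replicate number as a block and 0.00047 with it). That of 8 fast-fibre genes was 1102274 and 924302 in NTG against 1209294 and 987246 in MCK-PPARa. Of 8 adipocyte markers 3 were tested, Fabp4, Adipoq and Retn, and their summed signal was 6505 and 6685 in NTG against 27314 and 16681 in MCK-PPARa. The 5 endothelial markers summed to 9073 and 10620 in NTG against 13370 and 14035 in MCK-PPARa, and the 5 macrophage markers to 8189 and 8917 in NTG against 10145 and 11162 in MCK-PPARa. No marker was listed at 0. The part of fibre type and cell makeup in the complex I values was not tested.

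Upstream sequences were taken for 31 of the 34 genes from the RefSeq promoter table (build GRCm38.p6), as the 250 bases before each start. The motifs searched, on both strands, were the NRF1 palindrome, a relaxed form of it with any base at its 2 central positions, which takes in the palindrome, the ETS core CCGGAAG bound by GABP, the estrogen-related receptor element TCAAGGTCA and the PPAR direct repeat (AGGTCA repeated after 1 base of any kind), with a relaxed form that allows any base at the 4th place of each AGGTCA and takes in the strict one. The relaxed NRF1 motif stood in 5 of the 31 genes (16.1%), which were Ndufa5, Ndufa8, Ndufab1, Ndufs5 and Ndufv2, against 12.0% of 6782 genes tested on the array and 4.98% of all 32851 promoters. The ETS core stood in 3 (9.68%), Ndufb6, Ndufb7 and Ndufs3, against 15.2% of genes tested and 6.91% of all promoters. None of the 31 genes held the NRF1 palindrome, the receptor element or either direct repeat in this window. Of the 6782 genes tested on the array they stood in 1.75%, 0.354%, 0.0147% and 0.236% in the same order. Of all promoters they stood in 0.782%, 0.387%, 0.0335% and 0.338%. At such low shares, none among 31 genes says little about the members. A match is a description of letters, not a binding site. These 4 upstream sequences are shown because the genes differ in how their arrays were ordered: Ndufab1, Ndufs3 and Ndufv3 had groups that did not overlap, and Ndufs5 followed the replicate number. They are written 5′ to 3′ on the gene's strand, and capitals mark the relaxed NRF1 motif (Ndufab1, Ndufs5) or the ETS core (Ndufs3), while Ndufv3 has none. In the order given they lie at chr7:122101849-122102098 (minus strand), chr4:123718187-123718436 (minus), chr2:90904722-90904971 (minus) and chr17:31519865-31520114 (plus).
Ndufab1: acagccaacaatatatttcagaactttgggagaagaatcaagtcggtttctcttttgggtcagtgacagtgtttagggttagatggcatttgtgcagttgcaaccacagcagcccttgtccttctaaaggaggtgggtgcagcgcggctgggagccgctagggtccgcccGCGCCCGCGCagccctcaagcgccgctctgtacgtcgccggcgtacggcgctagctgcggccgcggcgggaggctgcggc
Ndufs5: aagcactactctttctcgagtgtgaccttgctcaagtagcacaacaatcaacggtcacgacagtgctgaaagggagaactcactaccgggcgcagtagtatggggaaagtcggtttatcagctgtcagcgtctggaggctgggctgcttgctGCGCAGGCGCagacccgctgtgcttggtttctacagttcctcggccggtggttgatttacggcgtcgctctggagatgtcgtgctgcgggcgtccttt
Ndufs3: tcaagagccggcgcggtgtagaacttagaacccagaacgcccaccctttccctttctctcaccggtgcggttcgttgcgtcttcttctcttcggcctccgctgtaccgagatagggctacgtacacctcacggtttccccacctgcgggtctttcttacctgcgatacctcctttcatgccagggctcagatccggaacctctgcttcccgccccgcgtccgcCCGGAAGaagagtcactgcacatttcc
Ndufv3: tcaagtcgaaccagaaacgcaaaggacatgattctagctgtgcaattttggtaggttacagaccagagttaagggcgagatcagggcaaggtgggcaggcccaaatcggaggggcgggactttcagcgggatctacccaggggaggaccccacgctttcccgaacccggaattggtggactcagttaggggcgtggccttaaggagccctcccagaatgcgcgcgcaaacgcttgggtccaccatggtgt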

How the data were processed

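Gene expression was measured on 1 Affymetrix-type mouse array per sample. The authors deposited 1 linear signal intensity for each of 22690 probe sets, made with MAS5 per the submitters' processing notes; its version and settings, and any detection calls, are not stated in those notes. Trimmed means (2% from each end) were level over the arrays, so no further normalization was applied. Gene symbols came from the annotation of the array platform (20380 with 1 symbol, 691 with several, 1555 with none here). Those below the 40th percentile of mean signal were left out, and the brightest stood for each gene. The offset of 64.2 is 10% of the median of all values. The fit used limma 3.58.1 under R 4.3.3 (lmFit, eBayes with a variance trend, two-sided, no covariate) and was tested on simulated data. The simulated arrays varied independently, so that check does not cover what same-numbered arrays share. The number of arrays limits the precision.

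Members and lists were chosen with earlier results of these data known. Genes given array by array were the core subunits, the next 8 by smallest p, the 4 most negative and Ndufa4, and other named genes were chosen after their values were seen, as were the lists for complex IV, ATP synthase and ribosomal proteins (symbols starting with Cox4 to Cox8, Atp5, Mrp, Rpl and Rps). Alternatives tried were other offsets, filters, normalizations, variance models and probe set rules, the replicate number as a block, and leaving out each array. Protein sequences were not used here.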

Additional observations from a re-analysis of the deposited data

How the results depend on the processing

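No complex I gene was called under any of the 13 alternatives but 1, the fit without MCK-PPARa replicate 1, which called Ndufb1 at -1.62, so that fits without 1 array called 0 to 1 members. The median difference of the 34 genes ran from -0.14 to 0.51 over those 4 fits and was reversed only without NTG replicate 2. In such a fit the lone array of a group is assumed to vary like the others. The count of all genes called was 5, and 2 with quantile normalization, 1 with median centring, 3 without a variance trend, 16 with probe sets averaged per gene and 72 to 150 without 1 array. With the replicate block 211 genes were called (2.51%, 122 higher and 89 lower), none of them a complex I gene. In that fit 4 of 34 members had an unadjusted limma p under 0.05. Ndufv3 and Ndufb9 were higher (7.95% of all genes tested) and Ndufv1 and Ndufb1 lower (7.03% of all genes). The block did change calls in other lists: Etfdh (limma adjusted p = 0.0011), Gpd2 (0.0076) and Etfb (0.024), the slow-fibre genes Myh7 (0.00047), Tnnc1 (0.0023), Tnni1 (0.015) and Tnnt1 (0.047), and the adipocyte markers Fabp4 (0.0034) and Adipoq (0.020) passed with it and not without it. Deviations from the group means of same-numbered arrays correlated at 0.47 across all genes, which are not independent. The labels do not say what the number marks, so what same-numbered samples share beyond it is not known.

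Among the genes chosen by rule for array values, signs turned for Ndufs1 with median centring (-0.0837), and for Ndufs7 (0.07) and Ndufab1 (-0.0715, from 0.41) with probe sets averaged. Other members turned too. Of all 34, 27 were above 0 in the main fit, 26 with quantile normalization, 22 with median centring and 25 with probe sets averaged. Ndufa8 and Ndufa9 kept their sign least often, in 9 of the 13 alternatives. Without 1 array the ranges were -0.27 to 0.31 for Ndufs1, -0.26 to 0.20 for Ndufs7, -0.13 to 1.09 for Ndufs8, -0.0453 to 0.90 for Ndufa5, -0.091 to 0.83 for Ndufa1, -0.0459 to 0.65 for Ndufb8, -0.15 to 0.81 for Ndufb2, -0.84 to 0.64 for Ndufa13, -0.28 to 0.0906 for Ndufc2 and -0.43 to 0.32 for Ndufa4. The signs of Ndufb1, Ndufv1, Ndufv2, Ndufs3, Ndufv3 and Ndufb9 were the same under all 13 alternatives, but without 1 array they ran from -1.62 to -0.14, -1.04 to -0.021, 0.18 to 0.25, 0.038 to 0.47, 0.35 to 1.16 and 0.32 to 0.72 in that order, and Ndufab1 from 0.19 to 0.62. The causes were not tested. No detection calls were used, so dim probe sets could not be judged against background.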
